A study of Mus musculus with 10 samples.

Results

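The genes described here are 10 markers of fibroblasts and of the states fibroblasts take, out of 55291 genes in the deposited expression table of the mouse submandibular gland. They are given by gene symbol, and all 10 were found. Pi16, Dpt and Cd34 mark the so-called universal fibroblasts, Cthrc1 and Fap mark activated fibroblasts, and Pdgfra, Pdgfrb, Thy1, Prrx1 and Twist1 are lineage genes. In the ligated group (5 mice) the duct of the right submandibular gland had been tied, and in the sham group (5 mice) the skin was opened and the gland exposed without tying. All mice were C57BL/6J, aged 8 weeks and labelled female, and glands were taken at day 7. Messenger RNA of whole glands was sequenced, so fewer cells of a type and less RNA per cell cannot be told apart in any value below.

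Fibroblasts are the cells that build and remodel the matrix between the secretory units and around ducts and vessels. In mice, single-cell surveys place Pi16 and Dpt positive cells around vessels and in connective tissue sheaths of many organs, where they are regarded as a reserve population. After injury, fibroblasts that make much collagen are marked by Cthrc1 and by the surface protease encoded by Fap. The receptors encoded by Pdgfra and Pdgfrb bind platelet-derived growth factors, and Pdgfrb is also a classical marker of pericytes. Prrx1 and Twist1 encode transcription factors of mesenchyme.

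The libraries held between 12105700 and 17305600 reads assigned to genes, worked out from the values. Some libraries stood apart in genes of other cells or glands. The summed level of 15 T cell genes was 193, 226 and 299 FPKM (fragments per kilobase of gene model, scaled to sequencing depth) in ligated 1, 2 and 3, 241 FPKM in sham 1, and 3.22 to 33.7 FPKM in the other 6 libraries. The same 4 libraries had 447 to 742 FPKM of 15 B cell and lymph node genes. Bpifa2, a product of the parotid gland, stood at 16877 to 34754 FPKM in ligated 2, 3 and 5, while ligated 1 had 43.5 FPKM and ligated 4 had 1.46 FPKM, against 14814 FPKM in sham 1 and 223 to 949 FPKM in sham 2 to 5. Transcripts of the Y chromosome (Uty, Kdm5d, Ddx3y, Eif2s3y) did not fall below 0.770 FPKM in any library, and Xist did not exceed 0.0267 FPKM, which goes against the label female. The 14 genes of submandibular secretion, among them Mucl2 and Prol1, had a summed level of 15318 to 94503 FPKM in ligated and 145935 to 306203 FPKM in sham glands. Not all of the 14 were present in every library. Smr3a was at 0 FPKM in ligated 4, sham 3 and sham 5, and Smr2 in sham 3. Smr3a was high in the libraries with high Bpifa2, at 1599, 3868 and 1802 FPKM in ligated 2, 3 and 5 and 1657 FPKM in sham 1. In the other 6 libraries it was at 0 to 11.2 FPKM, so its zeros lay among libraries low in Bpifa2.

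Every one of the 10 fibroblast genes was higher after ligation. A gene was called higher when its log2 fold change of log2(FPKM + 1) was at least 1 and its Benjamini-Hochberg adjusted p in limma was under 0.05. By that rule 10 of 10 were called higher and 0 lower, where 17.1% of the 11856 genes tested were called higher (2031) and 1.16% lower (138). Genes were tested when they reached 1 FPKM in at least 5 of 10 libraries. Fap and Prrx1 reached it in 5 ligated libraries and 1 sham library, so they could enter only by being high after ligation. With no filter on low values 10 of 10 were again called higher, where 7.68% of genes were. Linear modelling of the recovered reads with limma-voom called 10 of 10, where 27% of genes were. With a filter at 5 FPKM 6 of the 10 were tested and 6 called, where 17.7% were. Antisense gene models overlap Pi16, Dpt, Cd34, Pdgfra and Prrx1, and whether the counting used strand is not known, so their reads cannot be told apart from those of the partner. In 9 of the 10 genes every ligated library lay above every sham library, as in 30.2% of all tested genes. The exception was Thy1.

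**Figure D1:**
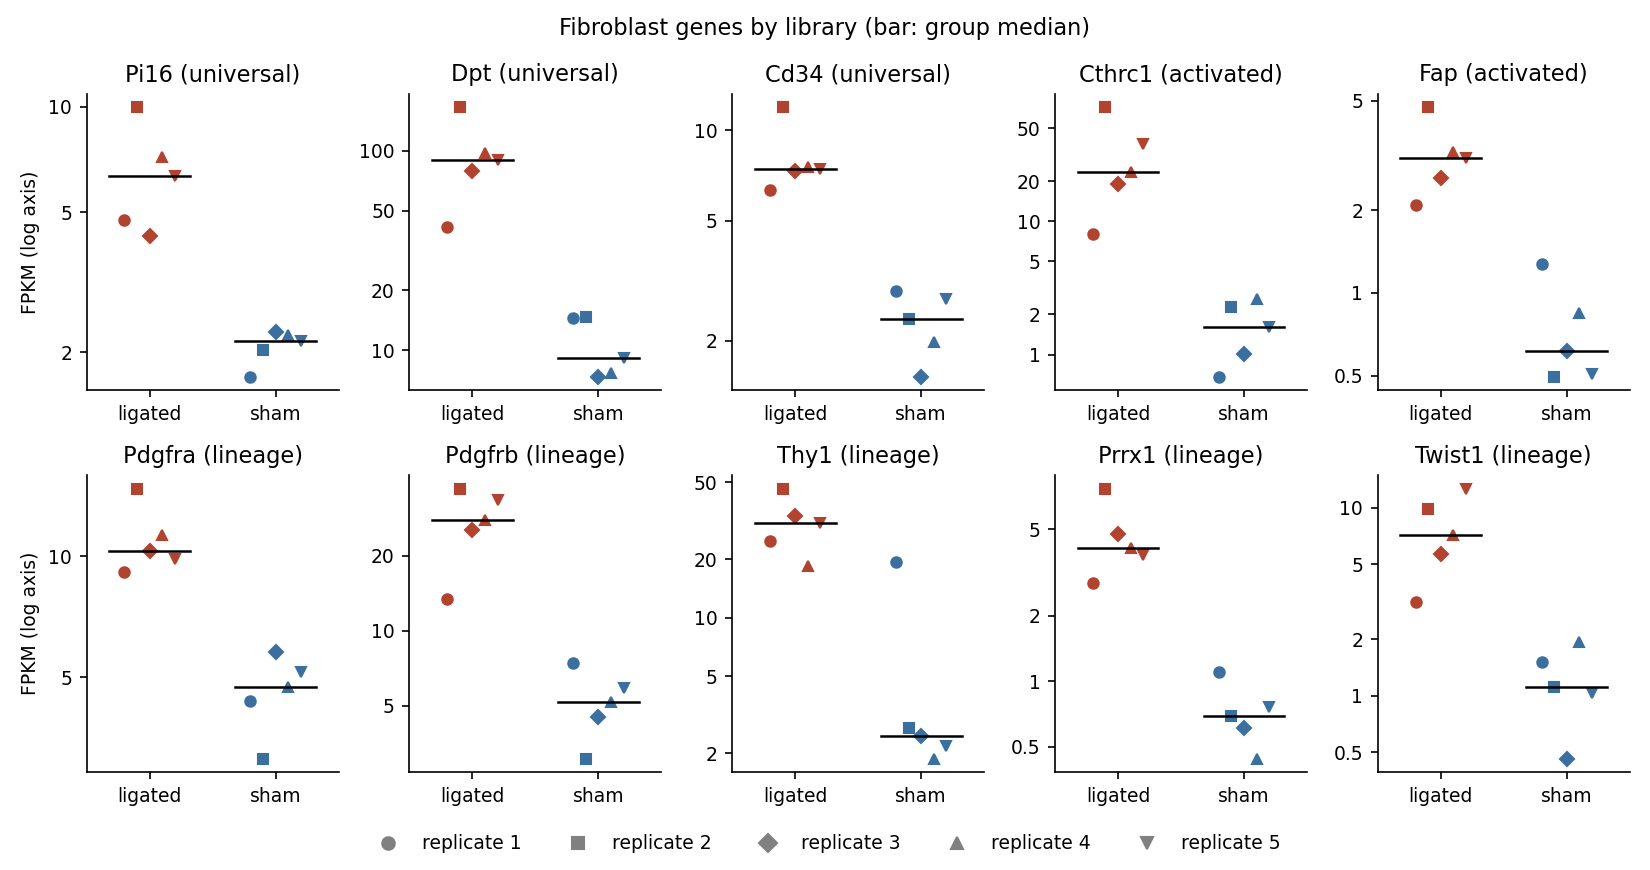
FPKM of each of the 10 fibroblast genes (log axis) in the 5 ligated and 5 sham libraries; each symbol is 1 library, its shape the replicate number, and the bar the group median. The groups do not overlap except in Thy1, where sham 1 (19.3 FPKM) lies above ligated 4 (18.4 FPKM).

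The size of the change differed widely among the 10. Cthrc1 rose by 3.38 and Dpt by 2.96, while Pdgfra rose by 1.10 and Pi16 and Fap by 1.24 each. Over all tested genes the median log2 fold change was itself 0.53, and relative to it the 10 genes ran between 0.57 (Pdgfra) and 2.85 (Cthrc1). Scaling the libraries to their median ratio took the median of all genes to 0.01 and left 6 of 10 called higher, where 7.09% of all genes were higher (840) and 3.97% lower (471). Quantile normalization took that median to -0.08 and also left 6, where 5.81% were higher (689) and 4.29% lower (509). The 6 were Dpt, Cthrc1, Pdgfrb, Thy1, Prrx1 and Twist1 under both scalings. Pdgfra, Pi16, Cd34 and Fap then had log2 fold changes of 0.49 to 0.94, under the fold threshold. After quantile normalization Pdgfra (limma adjusted p = 0.0586, range over its alternatives 0.000154 to 0.0586) and Pi16 (limma adjusted p = 0.0523) missed the p threshold as well.

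**Figure D2:**
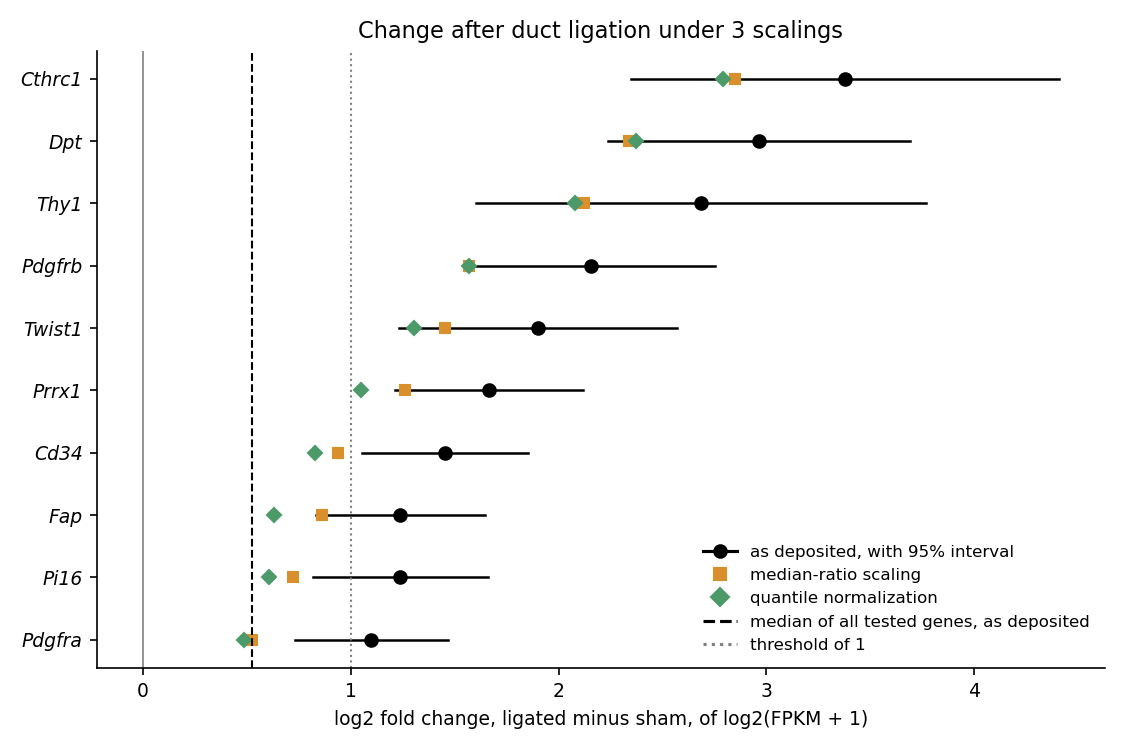
Log2 fold change of log2(FPKM + 1), ligated minus sham, of the 10 genes; circles are the values as deposited with their 95% interval from limma, squares the values after median-ratio scaling and diamonds after quantile normalization. All points lie above 0, and under both other scalings Pdgfra, Pi16, Fap and Cd34 fall below the threshold of 1 (dotted line).

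Among the universal genes, Dpt encodes dermatopontin, a small matrix protein that binds decorin and collagen. It lies on chromosome 1 at 164796644 to 164824266 (GRCm38, plus strand; ENSMUSG00000026574.5). Dpt stood at 41.6, 166, 78.9, 97.7 and 89.9 FPKM in ligated 1 to 5, against 14.4, 14.6, 7.34, 7.67 and 9.09 FPKM in sham 1 to 5. The lowest ligated gland was 2.85 times the highest sham gland. The mean was 94.8 ± 45.1 FPKM in ligated and 10.6 ± 3.62 FPKM in sham glands (SD, n = 5 each), and the log2 fold change was 2.96 ± 0.33 (SE; limma, Benjamini-Hochberg adjusted p = 0.000158).

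Pi16 encodes a secreted peptidase inhibitor and lies on chromosome 17 at 29317680 to 29330593 (plus strand; ENSMUSG00000024011.17). It stood at 4.75, 9.98, 4.28, 7.18 and 6.35 FPKM in ligated 1 to 5, against 1.70, 2.03, 2.29, 2.23 and 2.15 FPKM in sham 1 to 5. The sham values were close together and the ligated values spread more widely. The means were 6.51 ± 2.27 FPKM in ligated and 2.08 ± 0.233 FPKM in sham glands (SD, n = 5 each). Pi16 thus rose by 1.24 ± 0.19 (log2; limma adjusted p = 0.00068). It was 0.72 after median-ratio scaling (limma adjusted p = 0.0169) and 0.61 after quantile normalization (limma adjusted p = 0.0523), where the adjusted p over all alternatives ran between 0.000201 and 0.0523. Dpt and Pi16, both markers of the same fibroblast population in single-cell surveys, thus changed unequally. Within each library Dpt was 8.76 to 18.4 times Pi16 in ligated glands and 3.21 to 8.49 times in sham glands, with no overlap, and multiplying a library by 1 factor leaves this ratio as it is.

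Cd34 encodes a sialomucin of the cell surface that is found on universal fibroblasts, on endothelium and on blood progenitors. It lies on chromosome 1 at 194938819 to 194961279 (plus strand; ENSMUSG00000016494.9). Cd34 stood at 6.33, 11.9, 7.32, 7.55 and 7.41 FPKM in ligated 1 to 5, against 2.92, 2.35, 1.51, 1.97 and 2.75 FPKM in sham 1 to 5. The groups were apart, and ligated 2 stood above the other 4 ligated glands, which lay close together. Cd34 rose by 1.45 ± 0.18 (log2; limma adjusted p = 0.000258), and by 0.94 after median-ratio scaling. Endothelial genes moved with it. Of 15 endothelial genes tested, 12 were called higher (17.1% of all genes) and 0 lower, among them Cdh5 (2.17), Pecam1 (1.85) and Eng (1.65), which encode junction and receptor proteins of vessel lining cells. Their summed level was 117 to 190 FPKM in ligated and 37.1 to 82.3 FPKM in sham glands. Cd34 amounted to 4.38% to 6.29% of that sum in ligated glands and 3.54% to 7.26% in sham glands, so the proportion of Cd34 to endothelial RNA overlapped between the groups. After median-ratio scaling 5 of the 15 (7.09% of all genes) and after quantile normalization 3 of the 15 (5.81% of all genes) were called higher. What part endothelium has in the Cd34 values was not tested.

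Promoter sequences are shown for the 3 universal genes, which changed unequally, and for Twist1, a factor that binds E-boxes. They are RefSeq sequences of 300 bases on GRCm38.p6, 250 before and 50 after the annotated start, read 5′ to 3′ on the strand of the gene, and RefSeq windows were found for 6 of the 10 genes (Pi16, Dpt, Cd34, Pdgfra, Prrx1 and Twist1). Capitals mark matches on either strand to any of 5 motifs. TATAAA is the TATA box. CANNTG is the E-box, bound by basic helix-loop-helix factors. TGANTCA is the AP-1 site. GGAATG is read by TEAD factors and CAGACA is the core of the SMAD box. The windows are chr1:164796413-164796712 for Dpt, chr17:29318632-29318931 for Pi16, chr1:194938571-194938870 for Cd34 and chr12:33957421-33957720 for Twist1, all on the plus strand.
Dpt: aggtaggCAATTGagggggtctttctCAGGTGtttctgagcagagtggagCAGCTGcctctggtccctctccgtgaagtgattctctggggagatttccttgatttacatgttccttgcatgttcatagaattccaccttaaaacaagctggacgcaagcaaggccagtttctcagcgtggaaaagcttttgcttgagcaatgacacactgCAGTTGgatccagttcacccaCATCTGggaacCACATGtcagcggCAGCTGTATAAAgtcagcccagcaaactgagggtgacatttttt
Pi16: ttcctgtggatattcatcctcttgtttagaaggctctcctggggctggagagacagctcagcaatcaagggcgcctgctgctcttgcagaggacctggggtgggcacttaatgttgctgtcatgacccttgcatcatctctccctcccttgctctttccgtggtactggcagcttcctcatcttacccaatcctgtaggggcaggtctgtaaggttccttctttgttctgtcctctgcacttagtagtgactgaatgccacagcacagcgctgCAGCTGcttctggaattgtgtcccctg
Cd34: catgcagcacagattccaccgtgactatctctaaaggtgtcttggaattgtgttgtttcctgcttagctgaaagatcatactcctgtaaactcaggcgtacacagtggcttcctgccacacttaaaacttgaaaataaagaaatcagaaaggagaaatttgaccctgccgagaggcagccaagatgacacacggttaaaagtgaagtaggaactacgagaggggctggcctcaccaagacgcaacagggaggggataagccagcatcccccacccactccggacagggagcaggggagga
Twist1: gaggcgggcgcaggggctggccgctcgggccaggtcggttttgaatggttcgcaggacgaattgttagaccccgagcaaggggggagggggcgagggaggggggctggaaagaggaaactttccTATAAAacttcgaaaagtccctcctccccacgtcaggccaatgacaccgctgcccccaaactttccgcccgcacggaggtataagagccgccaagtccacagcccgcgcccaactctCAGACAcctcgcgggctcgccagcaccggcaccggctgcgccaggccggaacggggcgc

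The Dpt window held 7 E-boxes, and 58 of 32851 promoters of the same length (0.177%) held as many, where the median was 1. This share was not planned and was worked out for the Dpt E-boxes alone, the highest motif count in the 6 windows. One of these E-boxes lay directly before a TATA box match at 12 bases past the RefSeq start. The Pi16 window held 1 E-box and the Cd34 window none of the 5 motifs. The Twist1 window held a TATA box match 126 bases before the start and a SMAD core match 9 bases before it. Over all promoters 72.3% held an E-box, 13.6% a TATA box, 21% the SMAD core, 14.7% the TEAD letters and 7.81% the AP-1 letters. AP-1 letters were in none of the 6 windows, and Prrx1 alone among the 6 had the TEAD letters. A match describes the letters in the window and is no evidence of binding.

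Among the activated genes, Cthrc1 encodes a secreted protein with a collagen triple helix repeat. It lies on chromosome 15 at 39076932 to 39087121 (plus strand; ENSMUSG00000054196.7). Cthrc1 stood at 8.08, 71.9, 19.0, 23.5 and 37.7 FPKM in ligated 1 to 5, against 0.679, 2.28, 1.02, 2.59 and 1.61 FPKM in sham 1 to 5. Ligated 2 stood far above ligated 1, yet the lowest ligated gland was 3.12 times the highest sham gland. The means were 32.05 ± 24.7 FPKM in ligated and 1.63 ± 0.810 FPKM in sham glands (SD, n = 5 each), a ratio of 19.6. The ligated values rest on 181 to 1481 reads per library and the sham values on 14 to 50. Cthrc1 rose by 3.38 ± 0.47 (log2; limma adjusted p = 0.000399), larger than that of 99.5% of all tested genes.

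Fap encodes a serine protease of the cell surface that cleaves gelatin and peptides. It lies on chromosome 2 at 62500943 to 62574075 (minus strand; ENSMUSG00000000392.17). Fap stood at 2.09, 4.74, 2.62, 3.24 and 3.09 FPKM in ligated 1 to 5, against 1.27, 0.495, 0.612, 0.846 and 0.508 FPKM in sham 1 to 5. The groups did not overlap, and sham 1 was the highest sham gland. The log2 fold change on the log2(FPKM + 1) scale was 1.24 ± 0.19 (limma adjusted p = 0.000567). Added to values this low, the 1 FPKM holds the change down. It was 1.97 with 0.1 FPKM added and 2.11 with limma-voom on the recovered reads (166 to 347 reads in ligated and 34 to 93 in sham libraries), and 0.63 after quantile normalization.

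Pdgfra and Pdgfrb encode the alpha and beta receptors of platelet-derived growth factor. Pdgfra lies on chromosome 5 at 75152292 to 75198215 (plus strand; ENSMUSG00000029231.15) and Pdgfrb on chromosome 18 at 61045150 to 61085061 (plus strand; ENSMUSG00000024620.11). Pdgfra stood at 9.15, 14.7, 10.3, 11.3 and 9.87 FPKM in ligated 1 to 5, against 4.37, 3.14, 5.78, 4.74 and 5.15 FPKM in sham 1 to 5. The groups were apart but closer than for any other of the 9 genes without overlap, the lowest ligated gland being 1.58 times the highest sham gland. The log2 fold change of Pdgfra was 1.10 ± 0.17 (limma adjusted p = 0.000601). It missed the fold threshold narrowly when ligated 2 (1.00 after rounding) or sham 2 (0.99) was left out, and clearly under the median-ratio (0.53) and quantile (0.49) scalings. Leaving out ligated 2, 3 and 5 and sham 1, whose parotid RNA was high, Pdgfra changed by 0.99 (limma adjusted p = 0.0157), and 7 of 8 fibroblast genes tested were called, where 15.4% of all genes were.

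Pdgfrb stood at 13.3, 37.0, 25.2, 27.7 and 33.4 FPKM in ligated 1 to 5, against 7.41, 3.07, 4.50, 5.19 and 5.91 FPKM in sham 1 to 5. Ligated 1 was the lowest ligated gland and still 1.80 times the highest sham gland. Pdgfrb rose by 2.16 ± 0.27 (log2; limma adjusted p = 0.000267). The ratio of Pdgfrb to Pdgfra within a library was 1.46, 2.51, 2.45, 2.45 and 3.38 in ligated 1 to 5, against 1.69, 0.977, 0.780, 1.09 and 1.15 in sham 1 to 5. Ligated 2 to 5 thus exceeded every sham gland in this ratio, and ligated 1 lay below sham 1. Of 13 pericyte and mural genes tested, 8 were called higher and 0 lower, a share to be read against 17.1% of all genes. Desmin (Des, 3.24), the proteoglycan gene Cspg4 (2.15) and the amine oxidase gene Aoc3 (1.98) changed the most among them. Of the 13 tested, 2 (Cspg4 among them) were under 1 FPKM in every sham library and could be tested only by being high after ligation. After quantile normalization 5 of the 13 were called higher (5.81% of all genes). The summed level of the 15 listed mural genes was 159 to 233 FPKM in ligated and 86.3 to 123 FPKM in sham glands. Pdgfrb amounted to 8.37% to 16.9% of that sum in ligated and 3.56% to 7.09% in sham glands, with no overlap. Much of the sum in sham glands came from Myh11 (20.2 to 44.2 FPKM) and Cnn1 (23.5 to 46.4 FPKM). Neither was called higher after ligation (-0.31 ± 0.27 for Myh11 and -0.19 ± 0.24 for Cnn1). The lack of overlap thus holds for the sum as listed, and the share without Myh11 and Cnn1 was not tested.

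The ligands and partners of these receptors were measured as well. Of 12 genes listed, 7 were called higher and 0 lower, where 17.1% of all genes were called higher. Their median log2 fold change was 1.18, against 0.53 over all genes. Pdgfb, the ligand that binds both receptors, rose by 2.33 ± 0.23 (limma adjusted p = 0.000102), with 24.4 ± 8.00 FPKM in ligated and 3.87 ± 0.765 FPKM in sham glands (SD, n = 5 each). Pdgfrl, a secreted receptor-like protein gene, rose by 2.44 ± 0.30 and the endocytic receptor gene Lrp1 by 2.12 ± 0.22. Pdgfrl was under 1 FPKM in every sham library and could be tested only by being high after ligation. Pdgfd, named after its value was seen, stood at 9.29 FPKM in ligated and 8.62 FPKM in sham glands on average (0.06 ± 0.23, limma adjusted p = 0.825). After quantile normalization 4 of the 12 were called higher (5.81% of all genes).

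Thy1 encodes a small surface glycoprotein that marks fibroblasts but also T cells and neurons in mice. It lies on chromosome 9 at 44043384 to 44048579 (plus strand; ENSMUSG00000032011.5). Thy1 stood at 24.8, 46.3, 33.5, 18.4 and 30.9 FPKM in ligated 1 to 5, against 19.3, 2.70, 2.47, 1.88 and 2.19 FPKM in sham 1 to 5. Sham 1 was level with ligated glands and far from the other sham glands, so the groups overlapped. The log2 fold change was 2.68 ± 0.49 (limma adjusted p = 0.00167) and 3.21 without sham 1. T cell genes moved with Thy1 in part. Of 10 T cell genes tested, 3 were called higher, namely Trbc2 (3.24), Cd8b1 (2.41) and Cd8a (1.78), where 17.1% of all genes were. In 0 of the 10 did every ligated library lie above every sham library, against 30.2% of all tested genes. Of the 10, 8 reached 1 FPKM in at most 1 sham library and could be tested only by being high in ligated glands. The summed level of the 15 listed was 193 to 299 FPKM in ligated 1 to 3 and 241 FPKM in sham 1. The count of T cell genes called was 0 to 9 over the alternatives. In ligated 4 and 5 the T cell sum was 23.8 and 33.7 FPKM, under that in sham 1 (241 FPKM) and above those in sham 2 to 5 (3.22 to 5.09 FPKM), and Thy1 was at 18.4 and 30.9 FPKM. Thy1 amounted to 11.2% to 91.5% of the T cell sum in ligated and 8.01% to 83.6% in sham glands, which overlapped. The part of T cells in the Thy1 values was not tested. Leaving out ligated 1, 2 and 3 and sham 1, a choice made after seeing the data, Thy1 was higher by 2.92 (limma adjusted p = 2.4e-05, range over the alternatives 1.1e-05 to 0.00742). Those same 4 libraries left out, 8 fibroblast genes were tested and 8 called higher, where 19.7% of all genes were, and Fap and Prrx1 fell below the filter. That comparison keeps 2 ligated and 4 sham libraries.

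**Figure D3:**
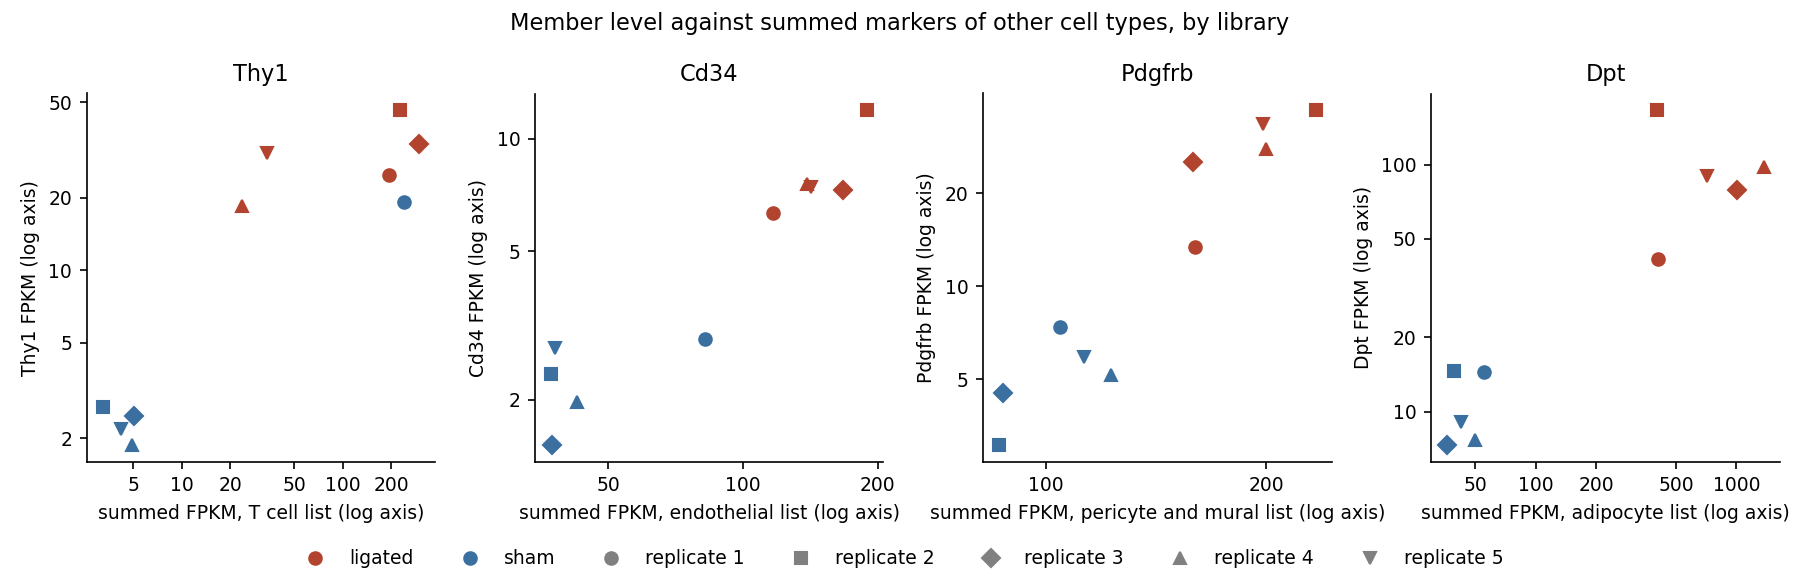
Level of Thy1, Cd34, Pdgfrb and Dpt (FPKM, log axis) against the summed FPKM of T cell, endothelial, pericyte and mural, and adipocyte genes (log axis) in each of the 10 libraries. Sham 1 lies with ligated 1 to 3 in the T cell sum. Ligated 4 and 5 have 18.4 and 30.9 FPKM of Thy1 at a T cell sum of 23.8 and 33.7 FPKM. Dpt is at 41.6 FPKM in ligated 1 and 166 FPKM in ligated 2 at nearly the same adipocyte sum. As a share of the adipocyte sum Dpt overlapped between the groups (7.13% to 41.0% in ligated and 15.3% to 37.1% in sham glands). The part of these other cells in the levels was not tested.

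Prrx1 and Twist1 encode a homeodomain and a basic helix-loop-helix factor of limb and head mesenchyme in mouse development. Prrx1 lies on chromosome 1 at 163245119 to 163313710 (minus strand; ENSMUSG00000026586.16) and Twist1 on chromosome 12 at 33957671 to 33959829 (plus strand; ENSMUSG00000035799.6). Prrx1 stood at 2.85, 7.69, 4.75, 4.09 and 3.80 FPKM in ligated 1 to 5, against 1.10, 0.692, 0.611, 0.440 and 0.759 FPKM in sham 1 to 5. All ligated glands were at least 2.58 times the highest sham gland. Prrx1 rose by 1.67 ± 0.21 (log2; limma adjusted p = 0.000245), and by 2.66 with limma-voom on recovered reads.

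Twist1 stood at 3.15, 9.84, 5.68, 7.20 and 12.7 FPKM in ligated 1 to 5, against 1.52, 1.11, 0.461, 1.93 and 1.03 FPKM in sham 1 to 5. It was the 1 gene of the 10 whose highest ligated value was in ligated 5. Twist1 rose by 1.90 ± 0.31 (log2; limma adjusted p = 0.000824), on 72 to 273 reads in ligated and 13 to 38 reads in sham libraries. The ratio of Twist1 to Prrx1 was 1.10 to 3.33 in ligated and 0.755 to 4.38 in sham glands and overlapped. Of 15 other mesenchymal transcription factor genes tested (24 listed), 6 were called higher and 0 lower, where 17.1% of all genes were called higher. Their median log2 fold change was 0.92, against 0.53 over all genes. Of the 15, 4 reached 1 FPKM in at most 1 sham library and could be tested only by being high after ligation. Snai1 (2.65 ± 0.47), Prrx2 (1.86 ± 0.32) and Meox1 (1.77 ± 0.36) had the largest changes of the called ones. The count was 3 after quantile normalization (5.81% of all genes), 5 after median-ratio scaling (7.09%), and 10 with 0.1 FPKM added (3005 of all genes). It was 11 both with limma-voom (27% of all genes) and with the same sum in every library (5464 of all genes). With a filter at 5 FPKM it was 0. Tcf21, a factor of fibroblasts in other organs, was at 0 in every library.

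Ratios within a library describe the mix of fibroblast transcripts on the deposited values, and multiplying a library by 1 factor leaves them as they are. Set against Pdgfra, Cthrc1 was 0.884, 4.88, 1.85, 2.08 and 3.82 times as high in ligated 1 to 5, against 0.155, 0.725, 0.176, 0.547 and 0.312 times in sham 1 to 5. Prrx1 was 0.311 to 0.522 times Pdgfra in ligated and 0.0929 to 0.252 times in sham glands. In both ratios every ligated gland lay above every sham gland. Pi16 was 0.416 to 0.677 times Pdgfra in ligated and 0.389 to 0.647 times in sham glands, and Cd34 was 0.669 to 0.810 against 0.262 to 0.749 times. Dpt was 4.55 to 11.2 times Pdgfra in ligated and 1.27 to 4.66 times in sham glands, with 4 of 5 ligated glands above every sham gland. All 3 universal genes thus overlapped between the groups when set against Pdgfra. Fap to Pdgfra overlapped through sham 1 alone, with 0.228 to 0.322 in ligated glands, 0.290 in sham 1 and 0.0987 to 0.179 in the other sham glands. Cthrc1 to Pi16, an activated over a universal gene, was 1.70 to 7.21 in ligated and 0.399 to 1.16 in sham glands with no overlap, whereas Cthrc1 to Dpt was 0.194 to 0.434 in ligated and 0.0471 to 0.338 in sham glands and overlapped. Cthrc1 to Col1a1, the main collagen chain, was 0.0205 to 0.0321 in ligated and 0.0222 to 0.0916 in sham glands. These ratios were not tested, since the genes were chosen with results of these data known.

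**Figure D4:**
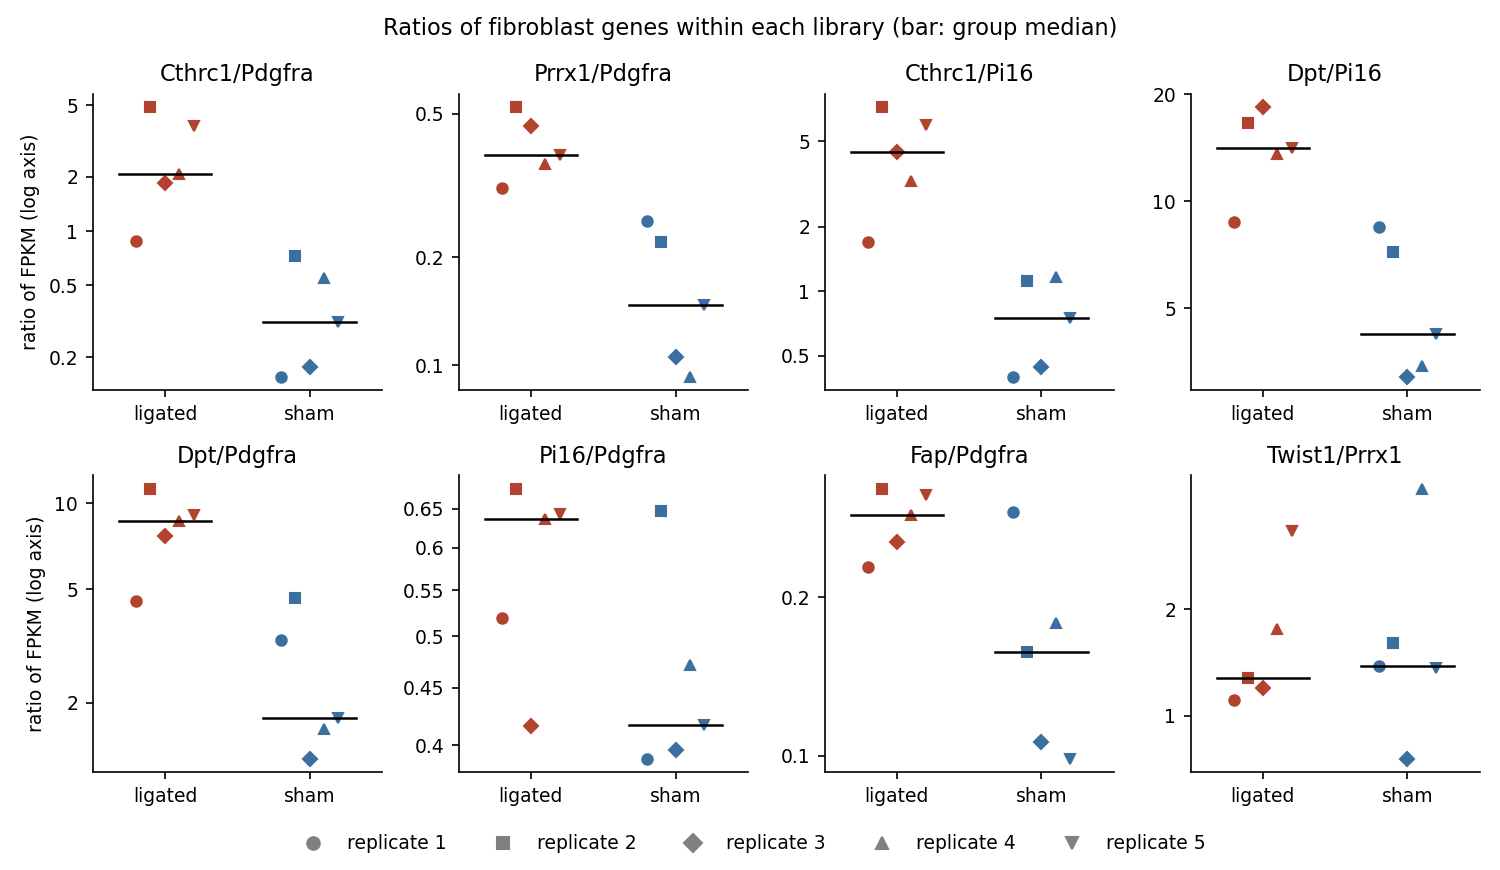
Ratios of FPKM between pairs of fibroblast genes within each library (log axis), 5 ligated and 5 sham; symbols give the replicate number and bars the group median. Cthrc1 and Prrx1 against Pdgfra, and Cthrc1 and Dpt against Pi16, separate the groups, whereas Pi16 against Pdgfra (0.416 to 0.677 in ligated and 0.389 to 0.647 in sham glands) and Twist1 against Prrx1 overlap.

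In ligated glands the order of mean levels per length was Dpt, Cthrc1, Thy1, Pdgfrb, Pdgfra, Cd34, Twist1, Pi16, Prrx1 and Fap. Dpt exceeded Cthrc1 in 5 of 5 ligated libraries. Cthrc1, Thy1 and Pdgfrb could not be ranked, each exceeding the next in 3 of 5. Pdgfrb exceeded Pdgfra, and Pdgfra exceeded Cd34, in 5 of 5. Cd34, Twist1 and Pi16 were again close, and Fap was below Prrx1 in 5 of 5. In sham glands the order was Dpt, Thy1, Pdgfrb, Pdgfra, Cd34, Pi16, Cthrc1, Twist1, Fap and Prrx1, where the place of Thy1 came from sham 1, since Thy1 exceeded Pdgfrb in 1 of 5 sham libraries.

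Among ligated glands most of the 10 genes were highest and lowest in the same libraries. Ligated 2 had the highest value of 9 genes and ligated 1 the lowest of 8 (Dpt, Cd34, Cthrc1, Fap, Pdgfra, Pdgfrb, Prrx1 and Twist1). The summed level of the 14 submandibular secretory genes ran the other way at these ends, with 94503 FPKM in ligated 1 and 15318 FPKM in ligated 2, the highest and the lowest of the ligated group. The part of secretory RNA in the spread among fibroblast genes was not tested. Taking deviations from the group mean of log2(FPKM + 1) over the 10 libraries, r exceeded 0.5 in 32 of 45 pairs of the genes and was below 0 in 2. The pairs Dpt with Prrx1 and Cd34 with Prrx1 each had r = 0.86. Thy1 had r of -0.11 to Pi16, -0.05 to Cthrc1, 0.03 to Pdgfra and 0.24 to Twist1. Its r was 0.47 to Pdgfrb, 0.48 to Dpt, 0.54 to Cd34, 0.59 to Prrx1 and 0.63 to Fap. All points come from the same 10 libraries, and these values are descriptions.

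Outside the 10 genes, the gene most like Cthrc1 among 11288 by the same measure was Postn, which encodes periostin, a matrix protein of activated fibroblasts (r = 0.98, 10 libraries), followed by Mical2 (0.97). Dpt was followed most closely by Aspn (0.94), a small leucine-rich proteoglycan gene, and by Angptl4 (0.94). For Pi16 they were Tspan18 (0.95) and Rnase4 (0.93). Rnase4 had r = 0.96 to Pi16 within ligated glands alone but 0.18 within sham glands alone. The closest were Mcu (0.96) and Phkg2 (0.94) for Cd34, Tmem88 (0.95) and Arntl (0.94) for Fap, and Tcaf1 (0.97) and Cd81 (0.95) for Twist1. Closest to Thy1 were Cybb (0.99), which encodes an oxidase subunit of phagocytes, and Dpy19l1 (0.99). For Pdgfrb they were the zinc transporter genes Slc39a10 (0.99) and Slc39a1 (0.96), and for Prrx1 Selp (0.97), which encodes P-selectin, and Tnfaip6 (0.95). For Pdgfra the closest were Mrc1 and Ltbp4 (both 0.86). These are the highest of 11288 candidates over 10 libraries, a description with no test.

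Further genes of the 2 fibroblast states were measured by lists. Of 15 other universal and adventitial fibroblast genes tested (20 listed), 11 were called higher and 0 lower, where 17.1% of all genes were called higher. Their median log2 fold change was 1.51, against 0.53 over all genes. Of the 15, 2 reached 1 FPKM in at most 1 sham library and could be tested only by being high after ligation. Mfap5, which encodes a microfibril protein, rose by 3.32 ± 0.45 and averaged 47.4 ± 27.5 FPKM in ligated and 3.13 ± 1.01 FPKM in sham glands (SD, n = 5 each). Col15a1 (2.72 ± 0.35) and Cd248 (2.45 ± 0.27), genes of a perivascular collagen and a stromal surface protein, rose too. Dpp4, named after its value was seen and used in mice as a marker of Pi16 positive cells but made by epithelium as well, stood at 6.44 FPKM in ligated and 8.80 FPKM in sham glands (-0.41 ± 0.13, limma adjusted p = 0.0235, under the fold threshold). After median-ratio scaling 7 (7.09% of all genes) and after quantile normalization 6 (5.81% of all genes) of the 15 were called higher. Dpp4 was called lower after quantile normalization.

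Of 18 other activated and myofibroblast genes tested (22 listed), 16 were called higher and 0 lower, where 17.1% of all genes were called higher. Their median log2 fold change was 2.97. After median-ratio scaling (7.09% of all genes) and after quantile normalization (5.81%) 16 were called as well. Timp1 (4.97 ± 0.60), Tnc (4.53 ± 0.69) and Fn1 (4.04 ± 0.43), genes of a metalloproteinase inhibitor and of wound matrix proteins, changed the most. Lrrc15, named after its value was seen, marks activated fibroblasts together with Cthrc1, and had means of 18.7 FPKM in ligated and 0.180 FPKM in sham glands. Acta2, the smooth muscle actin gene of myofibroblasts, also named after its value was seen, stood at 188 FPKM in ligated and 162 FPKM in sham glands (0.19 ± 0.23, limma adjusted p = 0.469). Acta2 is also made by the myoepithelial cells of the gland. Of 19 general stromal genes tested (20 listed), 19 were called higher, where 17.1% of all genes were. Their median log2 fold change was 2.80, led by the collagen genes Col1a1 (4.55 ± 0.45), Col3a1 (4.18 ± 0.38) and Col1a2 (4.09 ± 0.41). Of the 18 activated genes tested, 5 reached 1 FPKM in at most 1 sham library and could be tested only by being high after ligation. Of those, 3 were under 1 FPKM in every sham library.

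**Figure D5:**
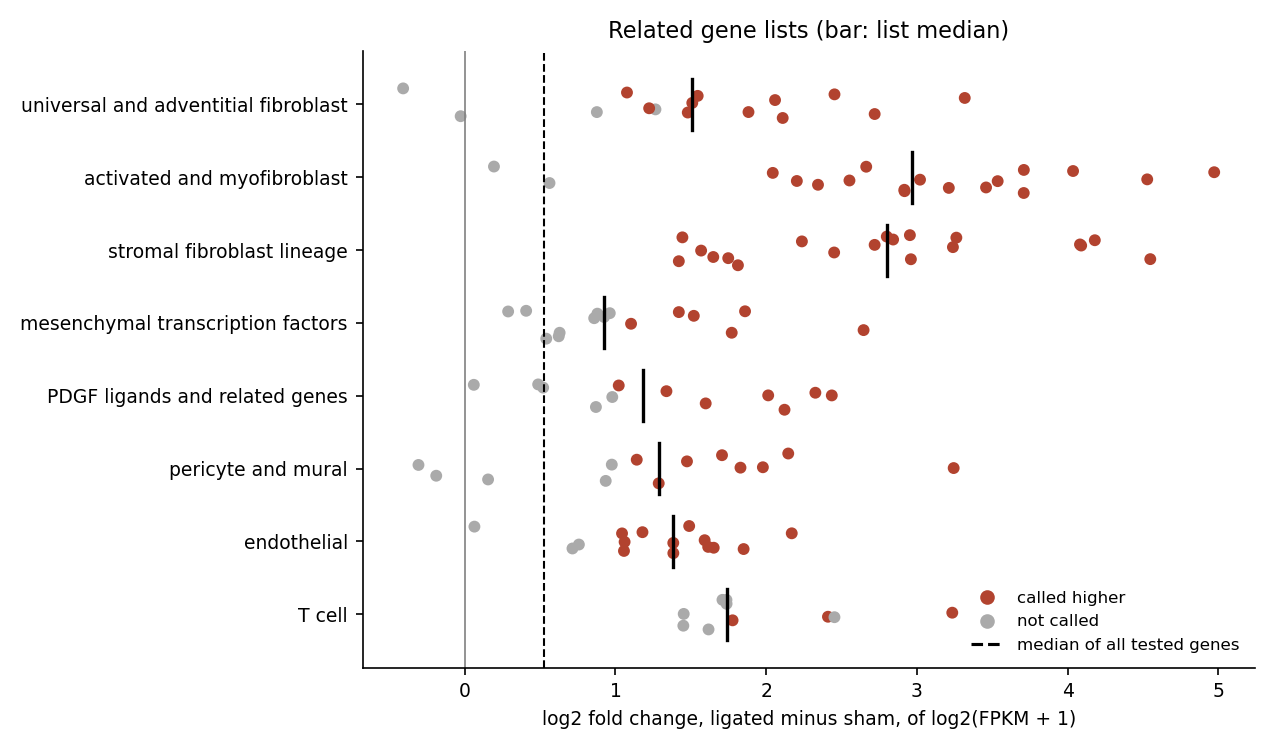
Log2 fold change of log2(FPKM + 1), ligated minus sham, of each tested gene in 8 lists; red points were called higher, grey points were not called, solid bars are list medians and the dashed line the median of all tested genes (0.53). The activated list has its median at 2.97 and the universal list at 1.51.

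Adipocyte and muscle RNA was higher in the ligated glands too. Of 12 adipocyte genes tested 12 were called higher, where 17.1% of all genes were. However, 7 of the 12 reached 1 FPKM in at most 1 sham library and could be tested only by being high after ligation. Of those, 5 were under 1 FPKM in every sham library. The largest changes were those of Cfd (6.48), Car3 (6.26) and Adipoq (5.05), and the summed level was 404 to 1371 FPKM in ligated and 36.2 to 55.2 FPKM in sham glands. Of 9 skeletal muscle genes tested 9 were called higher, where 17.1% of all genes were. Of the 9, 8 reached 1 FPKM in at most 1 sham library and 7 in none, so that this count was largely set by the filter. The largest changes were those of Acta1 (5.45), Atp2a1 (4.61) and Mylpf (4.36), and the summed level was 34.7 to 804 FPKM in ligated and 1.92 to 4.19 FPKM in sham glands. Fat and muscle hold fibroblasts of their own. Dpt amounted to 7.13% to 41.0% of the adipocyte sum in ligated and 15.3% to 37.1% in sham glands, which overlapped. Pi16 amounted to 0.427% to 2.47% of it in ligated and 3.08% to 6.32% in sham glands, lower in every ligated gland. Within the ligated group, ligated 1 and 2 had nearly the same adipocyte sum (406 and 404 FPKM), and Dpt was 41.6 and 166 FPKM there. Ligated 4 had the highest adipocyte and muscle sums and 97.7 FPKM of Dpt. Ligated 1, with the lowest muscle sum of the ligated group (34.7 FPKM), was also the lowest ligated library in 8 of the 10 fibroblast genes. Mast cell and progenitor genes were called higher in 5 of 5 tested, led by Cma1 (2.08), Mcpt4 (1.90) and Cpa3 (1.52), where 17.1% of all genes were. Cpa3 reached 1 FPKM in only 1 sham library and could be tested only by being high after ligation. Of 10 Schwann and neural genes tested, 1 was higher (Pmp22, 1.00) and 1 lower (Ngfr, -1.64), where 17.1% of all genes were higher and 1.16% lower. Of 5 B cell and lymph node genes 0 were called (Ccl21a, 1.77 ± 1.04, limma adjusted p = 0.151). Of 5 parotid list genes tested 2 were lower (Car6, -2.005, and Pip, -1.98), where 1.16% of all genes were. Car6 did not follow Bpifa2, with 13446 to 18095 FPKM in sham 2 to 5, where Bpifa2 was at 223 to 949 FPKM. Bpifa2 (14079 FPKM in ligated against 3331 FPKM in sham glands on average), Amy1 (2984 against 681 FPKM) and Dnase1 (238 against 55.6 FPKM) were not called. Of 13 submandibular secretory genes tested 9 were lower, led by Mucl2 (-3.86), Klk1b3 (-2.56) and Prol1 (-2.26), where 1.16% of all genes were. Klk1 (0.91), Smr3a (3.98), Ren1 (-1.42) and Lpo (-0.85) were not called. Klk1 averaged 8172 FPKM in ligated and 3834 FPKM in sham glands. The part of fat, muscle or other tissue in the fibroblast values was not tested.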

How the data were processed

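Gene expression was measured by RNA sequencing of whole submandibular glands, 5 ligated and 5 sham. The authors deposited FPKM, 1 column per library, and 0 columns belonged to no sample. Per the submitters' processing notes the build was GRCm38 (mm10). For aligner, counter, annotation and strand setting, the sources used here name none. Replicate numbers are those of the sample titles.

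FPKM times merged exon length (GENCODE M21) gave whole multiples of 1 read for 98.3% to 98.4% of values under 200 reads (tolerance 0.01), and from these the reads per library were worked out. The sources do not state whether a unit is a read or a pair. Among small whole counts 67.6% to 75.6% per library were even, so the read numbers given here may not each stand for a separate fragment. In the longest and shortest of the 10 genes, 3 reads amount to 0.0157 to 0.156 FPKM. All 10 genes lay above that in every library. Pi16, Dpt, Cd34, Pdgfra and Prrx1 overlap antisense models, whose reads could be counted with them.

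The 11856 genes that reached 1 FPKM in 5 or more of 10 libraries were compared on log2(FPKM + 1) with limma 3.58.1 in R 4.3.3, with the 2 groups and no covariate, a mean-variance trend, two-sided tests and Benjamini-Hochberg adjustment over all tested genes. The pseudocount understates changes of low genes. Called means a log2 fold change of 1 or more in size together with an adjusted p below 0.05. P-values measure the spread between mice. The fit was tested on simulated data. Lists (15) were described by counts and medians and not tested, and from each the 3 called genes with the largest change, or the highest gene where none was called, are named. Genes most alike were the 2 with the highest r of deviations from group means. The 10 genes and the lists were chosen with earlier results of these data known. Alternatives were other pseudocounts, filters, scalings, moderation, limma-voom on recovered reads, a replicate block and fits without libraries. The fit without the 4 libraries with lymph node transcripts was chosen after seeing the data.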

Additional observations from a re-analysis of the deposited data

Results flagged for a closer look

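Within groups of 5, a library was noted when its gap to the nearest other library, divided by the range of the group, exceeded 0.71, which chance gives in about 1 of 20 groups. Over the 20 groups examined, 2 values were noted. Thy1 in sham 1 stood at 19.3 FPKM, with a gap of 0.953 of the range. Cd34 in ligated 2 stood at 11.9 FPKM, with a gap of 0.782 of the range.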

How the results depend on the processing

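Of 222 fold changes of the 10 fibroblast genes recomputed under 23 alternatives, 0 reversed, 211 kept their call and 11 lost it (Pdgfra 5, Pi16, Cd34 and Fap 2 each). The number of the 10 genes called higher was 6 with a filter at 5 FPKM, which left 6 to be tested, 6 after median-ratio scaling and 6 after quantile normalization. It was 9 or 10 without any 1 library, and 7 of 8 tested when ligated 2, 3 and 5 and sham 1 were left out for their parotid RNA, where Fap and Prrx1 were not tested. Over all genes 2031 were called higher and 138 lower, against 840 and 471 after median-ratio scaling, 689 and 509 after quantile normalization, 5464 and 65 with the same sum in every library, 3165 and 194 with limma-voom, 1166 and 101 with a filter at 5 FPKM, and 1697 and 84 without those 4 libraries. List counts moved by over 1.5 times in 85 of 690 recomputations. With the replicate block 10 of 10 fibroblast genes were called higher, as were 2082 of all genes (17.6%). Whether title numbers pair the mice is not stated in the labels. Deviations of same-numbered libraries correlated between -0.378 and 0.577. Ligated 1 and 5 correlated best with the sham library of their own number, and ligated 2, 3 and 4 with another. So few libraries cannot decide whether the mice were paired. Depth limits the sham values of Twist1 and Cthrc1 (13 and 14 reads at the lowest).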
